A study of Homo sapiens with 6 samples.

Results

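Described here is how H2170 cells expressing wild-type ACK1 differed from GFP control cells. The 2 libraries of cells expressing ACK1(WT)-GFP (WT) were compared with the 2 libraries of cells expressing GFP alone (Control), 4 of the 6 libraries of the series. The members were chosen by their labels and not by any measured value. H2170 is an established line derived from a human squamous carcinoma of the lung, and all 6 libraries are polyadenylated RNA from this line grown in serum. The other 2 libraries came from cells expressing ACK1(IDRmut)-GFP (IDRmut). They entered the same model and served to test where WT differed from the mutant form. The labels call both ACK1 groups overexpression and do not give the altered residues, the promoter, the number of clones or the time of expression. Nothing says that the 2 libraries of a group came from separate cultures. The p-values therefore measure the spread between these libraries, which may be technical. In every section below, an effect of ACK1 and another difference between the cultures cannot be told apart.

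ACK1 is a cytoplasmic tyrosine kinase encoded by TNK2. It binds active CDC42 and clathrin, associates with receptors such as EGFR, and is activated in many carcinomas by gene amplification or overexpression. The series concerns condensates of ACK1 and the activation of STAT5, a transcription factor that is phosphorylated by kinases, enters the nucleus and binds DNA at palindromic sites of the form TTCNNNGAA. In the related interferon pathway, receptors signal through JAK kinases to factors such as STAT2 and IRF9, which bind elements in front of antiviral genes. A squamous carcinoma cell typically carries basal epithelial features, among them TP63, SOX2, KRT5 and KRT14.

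The libraries held 19128111 to 33540998 counts each, with the deepest being WT replicate 2, and 16591 genes passed a filter on low counts. The squamous regulators TP63 (24.2 and 22.9 CPM, counts scaled to an equal library total, in Control) and SOX2 (351 and 327 CPM), and the basal keratin KRT14 (1414 and 1434 CPM), were present. The defining epithelial genes CDH1, EPCAM, PERP, PKP1 and FGFR2 had 0 to 4 counts in every library, so 5 of the 15 squamous carcinoma markers were absent or nearly so. VIM, a mesenchymal filament protein, stood at 1217 and 1219 CPM in Control. None of 15 leukocyte markers passed the filter, and their summed level was 0.710 to 2.06 CPM over the 6 libraries.

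TNK2 itself was the first check of the labels. It measured 41.1 and 43.1 CPM in the Control libraries, 3514 and 3613 CPM in the WT libraries and 1762 and 1455 CPM in the IDRmut libraries. Both WT libraries lay far above both Control libraries, an 84.6-fold difference (log2 fold change 6.40 ± 0.08; edgeR's quasi-likelihood test, adjusted p = 1.1e-18). Here and below, the value after ± is an approximate standard error. It is the absolute log2 fold change divided by the square root of the test's F statistic. For genes with only a few counts in a group it can fall below the counting error. TNK2 took 0.358% and 0.368% of the WT counts, beside 0.00402% and 0.00419% in Control. Per kilobase of exon its level moved from 3.51 to 297 CPM. On the same scale KRT14 stood at 624 in Control and 273 in WT. The length used is that of all annotated exons of a gene joined. If RNA from the construct lacks some exons of TNK2, the value of 297 understates its level, so TNK2 and KRT14 are not ranked here. WT carried more TNK2 RNA than IDRmut (log2 difference 1.15 ± 0.06, adjusted p = 2.8e-10 by the same test). Wherever WT and IDRmut differed below, the amount of ACK1 RNA and the change in the protein cannot be told apart.

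A gene was called when its adjusted p (Benjamini-Hochberg over all 16591 genes, edgeR's quasi-likelihood test) was under 0.05, and "rose" and "fell" are used only of called genes. In all, 5807 genes (35.0%) were called, 2889 higher in WT (17.4%) and 2918 lower (17.6%). The median called rise was 1.44-fold and the median called fall 1.21-fold. Of the genes that rose, 846 did so by 2-fold or more (5.10% of all tested), but of those that fell only 210 did (1.27%). At 16-fold or more there were 105 rises and 2 falls, the zinc-finger gene ZNF423 and the small nuclear RNA gene RNU6-1, which belongs to a multicopy family and is uncertain in any count table. When the test asked for a change beyond 1.5-fold, 914 genes were called (5.51%), 690 higher (4.16%) and 224 lower (1.35%). Leaving out 1 library at a time left 3974 to 4467 calls, and without Control replicate 1 the genes called lower numbered 1944. Gene lists by function are described by the members that passed the filter, called measured. A gene low in Control could pass through WT alone, so these counts do not speak for unmeasured members. The shares to set beside them are the 17.4% of all genes called higher and the 17.6% called lower. List counts below that moved by more than 1.5 times on leaving out a library are given with that library, except counts of 5 or fewer, which moved by up to 4 genes.

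The size of a change went with the level in Control. Among the 2903 genes under 1 CPM in Control, 20.6% were called higher and 1.31% lower, and 555 rose by 2-fold or more. Among the 2426 genes at 100 CPM and above, 12.3% were called higher and 40.9% lower, yet 3 rose and 18 fell by 2-fold or more. Precision differed as well. The median standard error of a log2 fold change was 0.40 under 1 CPM and 0.041 at 100 CPM and above. A gene under 1 CPM in Control could also pass the filter through another group alone: 1247 of the 2903 had at least 10 counts in both Control libraries. Classing genes by their mean over all 6 libraries, an alternative chosen after seeing the data, gave 13.9% higher and 2.49% lower under 1 CPM, and 14% higher and 38.8% lower at 100 CPM and above. Expressed as RNA, genes called higher made up 13% of the counts in each Control library and 17.3% and 17.4% in the WT libraries. Genes called lower made up 40.4% in each Control library and 34.3% in each WT library. The 845 genes that rose 2-fold or more, TNK2 aside, went from 0.246% of the counts in each Control library to 0.768% and 0.771% in WT.

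**Figure D1:**
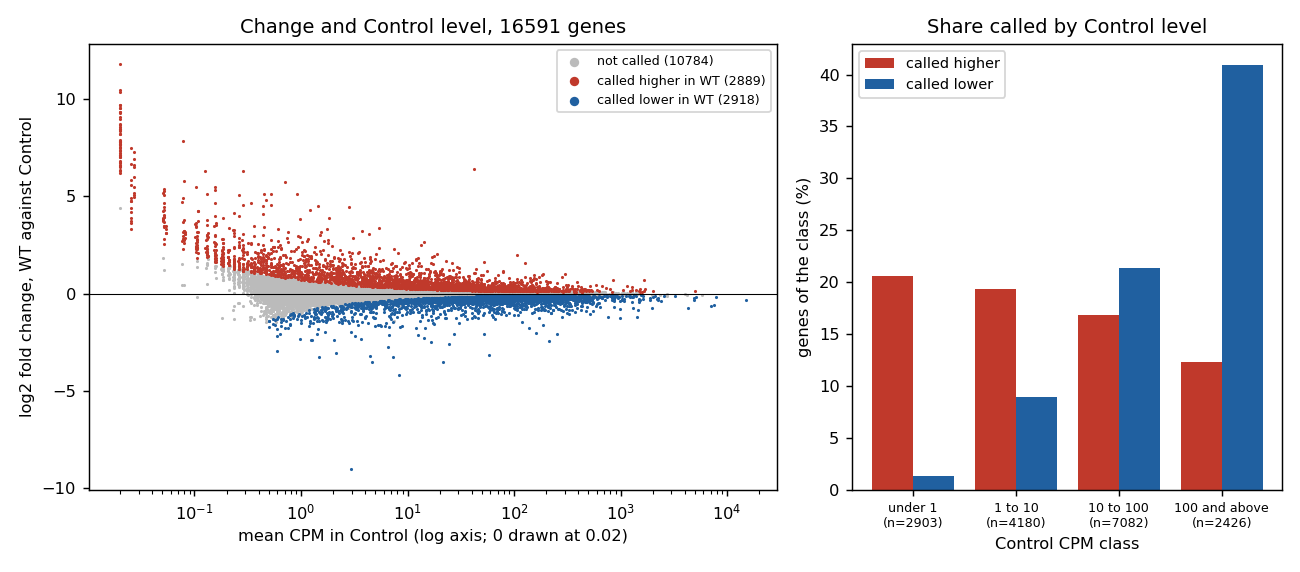
Left, the log2 fold change of WT against Control (y) by mean Control CPM (x, log axis) for 16591 genes, with fitted values for genes at or near 0 in Control that depend on the prior count; right, the percent of genes called higher or lower in 4 classes of Control CPM. The tallest rises sit at the left edge, and the share called lower grows from 1.31% under 1 CPM to 40.9% at 100 CPM and above.

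Replicates agreed closely for called genes. The groups did not overlap for 5805 of the 5807 called genes, against 11484 of all 16591 (69.2%). The gap between the groups was wider than the larger of the 2 replicate differences for 88.0% of called genes and for 42.6% of all genes. Over called genes the median replicate difference was 0.067 on the log2 scale between the Control libraries and 0.053 between the WT libraries, beside a median absolute change of 0.36. The log2 difference of WT replicate 1 from Control replicate 1 and that of WT replicate 2 from Control replicate 2 share no library, and across genes they correlated at Pearson's r = 0.94 over called genes and 0.80 over all genes. Genes are not independent replicates, and calling had already picked genes with concordant libraries, so these values are descriptions. Calls of under 1.2-fold (2004 genes) rested on replicate differences of 0.042 in Control and 0.033 in WT.

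**Figure D2:**
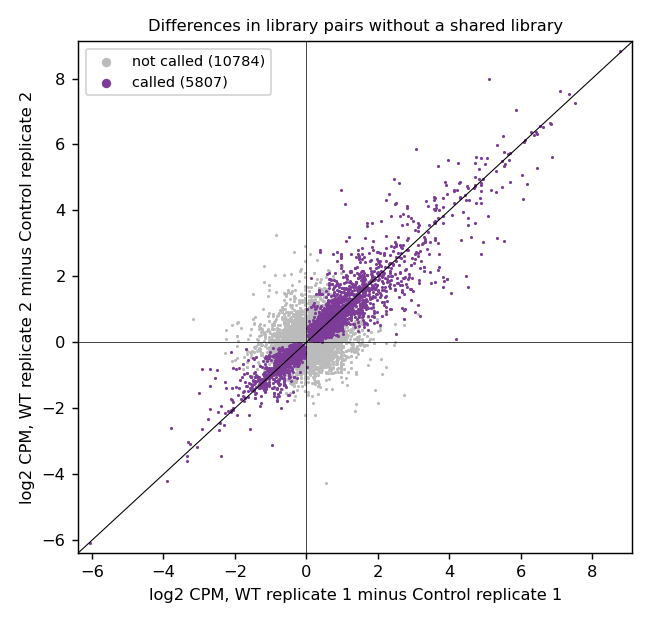
Each point is 1 of 16591 genes, with the log2 CPM difference of WT replicate 1 from Control replicate 1 (x) and of WT replicate 2 from Control replicate 2 (y); the diagonal marks equal values. Called genes, in purple, lie along the diagonal in both quadrants of equal sign.

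At the bottom of the Control range, 49 tested genes were without a count in both Control libraries, and 48 of them were called higher. Such genes pass the filter only through WT or IDRmut, so that share follows from the filter and is no result. SULF1, an extracellular sulfatase that trims heparan sulfate, had 0 counts in Control and 19.3 and 20.1 CPM in WT, at least 253-fold higher when Control is set at a floor of 3 counts for the group. FLRT2, a guidance and adhesion molecule, was at least 99.9-fold higher and ADGRL4, an endothelial adhesion receptor, at least 92.4-fold higher on the same floor. SULF1 was not called between WT and IDRmut (IDRmut 18.9 and 21.6 CPM; WT minus IDRmut -0.03 ± 0.08, adjusted p = 0.8 by edgeR). Between 10 and 100 Control CPM the largest rises after TNK2 were those of IFI6, HELZ2 and the matrix protein EDIL3 (log2 2.01 ± 0.06), and the largest falls those of the transcription factor MAF, the imprinted long RNA H19 and the nitric oxide synthase NOS2 (-2.58 ± 0.10). MAF measured 22.9 and 20.2 CPM in Control and 2.204 and 1.64 CPM in WT (-3.53 ± 0.15), and H19 60.3 and 57.3 CPM and 7.15 and 6.26 CPM (-3.15 ± 0.11). The WT libraries lay under the Control libraries throughout for both. That was a condition for naming them among the largest falls, and it held for 34.7% of all genes.

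Above 100 CPM only 3 genes rose 2-fold or more. DHRS2, a dehydrogenase, went from 108 and 108 CPM to 432 and 432 CPM (log2 2.00 ± 0.04). TGFBI, a matrix protein induced by TGF-beta, went from 125 and 130.3 to 383 and 383 CPM (1.59 ± 0.04), and SLC7A5, the large neutral amino acid transporter, from 189.6 and 185 to 375 and 387 CPM (1.02 ± 0.04). The largest falls in this class were larger than its rises. CDH5, the cadherin of endothelial junctions and here a gene of tumor cells, dropped from 210.3 and 216 to 39.2 and 39.7 CPM (-2.43 ± 0.04). KCND3, a voltage-gated potassium channel, fell to a similar degree (-2.07 ± 0.05), as did the carboxylesterase CES1 (-2.01 ± 0.05). The kinase adaptor PIK3AP1 fell from 971 and 999.9 to 413 and 414 CPM (-1.25 ± 0.03).

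The interferon pathway held the largest concerted rise. As examples, 300-base promoter windows (250 bases before the start and 50 after, RefSeq, build GRCh38.p14) are printed for 5 genes that rose. In these, each match to the interferon-response motif (GAAA, then 2 bases of any kind, then GAAA) on either strand is in capitals. A window is also printed for CISH, the classic STAT5 target, with each match to TTCNNNGAA in capitals. IFIT1 is at chr10:89392373-89392672 (plus strand), ISG15 at chr1:1013247-1013546 (plus), IFI6 at chr1:27672143-27672442 (minus), IFI44L at chr1:78620198-78620497 (plus), CXCL10 at chr4:76023448-76023747 (minus) and CISH at chr3:50611725-50612024 (minus). The sequences run 5′ to 3′ on the strand of the gene.
IFIT1: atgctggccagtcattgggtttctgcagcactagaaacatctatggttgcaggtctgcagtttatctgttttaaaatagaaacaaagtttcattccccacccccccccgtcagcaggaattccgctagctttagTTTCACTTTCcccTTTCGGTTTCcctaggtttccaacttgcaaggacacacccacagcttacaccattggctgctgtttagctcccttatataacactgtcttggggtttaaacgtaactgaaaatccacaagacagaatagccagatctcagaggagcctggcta
ISG15: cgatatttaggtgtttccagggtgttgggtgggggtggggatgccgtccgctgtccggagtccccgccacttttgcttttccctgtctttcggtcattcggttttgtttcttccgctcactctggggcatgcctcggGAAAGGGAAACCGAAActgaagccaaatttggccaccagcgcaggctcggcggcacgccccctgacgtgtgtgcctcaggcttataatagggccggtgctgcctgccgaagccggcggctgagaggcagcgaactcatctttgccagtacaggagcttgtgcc
IFI6: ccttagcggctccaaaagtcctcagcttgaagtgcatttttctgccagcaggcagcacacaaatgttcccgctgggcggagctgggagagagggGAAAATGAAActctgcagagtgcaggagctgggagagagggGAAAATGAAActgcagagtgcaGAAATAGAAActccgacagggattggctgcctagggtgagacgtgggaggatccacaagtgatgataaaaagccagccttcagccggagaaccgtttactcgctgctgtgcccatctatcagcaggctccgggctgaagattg
IFI44L: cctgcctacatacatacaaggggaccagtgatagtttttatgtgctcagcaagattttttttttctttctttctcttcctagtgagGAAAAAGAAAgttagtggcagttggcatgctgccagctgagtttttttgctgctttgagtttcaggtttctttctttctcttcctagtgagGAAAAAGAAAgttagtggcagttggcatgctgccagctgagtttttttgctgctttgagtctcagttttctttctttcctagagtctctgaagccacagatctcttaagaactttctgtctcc
CXCL10: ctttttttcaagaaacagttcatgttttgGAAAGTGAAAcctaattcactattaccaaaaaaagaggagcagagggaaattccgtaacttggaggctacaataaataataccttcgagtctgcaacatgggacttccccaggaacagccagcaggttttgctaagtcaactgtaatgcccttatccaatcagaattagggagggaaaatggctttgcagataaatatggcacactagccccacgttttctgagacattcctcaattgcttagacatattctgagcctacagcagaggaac
CISH: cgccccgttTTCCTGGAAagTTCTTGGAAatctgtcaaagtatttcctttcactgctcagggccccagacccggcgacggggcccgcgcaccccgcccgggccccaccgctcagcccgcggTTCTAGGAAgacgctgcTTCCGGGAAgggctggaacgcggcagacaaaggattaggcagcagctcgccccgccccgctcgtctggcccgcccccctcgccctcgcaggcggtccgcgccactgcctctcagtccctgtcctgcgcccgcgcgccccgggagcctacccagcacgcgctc
IFIT1, ISG15 and IFI44L each hold 2 matches to the interferon-response motif, IFI6 holds 3 and CXCL10 holds 1. Where matches overlap, as in ISG15, the capitals run on. CISH holds 4 matches to TTCNNNGAA and none to the other motif. A match is a run of letters and not a measured binding site, and a role of the motif in the rises was not tested. The 5 windows with the interferon-response motif are not typical. Among windows of genes on the interferon lists that rose, 36 of 68 held a match.

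The interferon-response motif occurred in 3.57% of all 35116 windows in the RefSeq table and in 2.88% of the 16523 windows of tested genes, of which 11382 had at least 1 window. By size of change it was in 2.19% of windows of genes that fell, 2.97% of those that rose by under 1.5-fold, 5.58% at 2 to 4-fold, 6.63% at 4 to 8-fold and 11.3% (18 of 159) at 8-fold or more. Windows of genes on the interferon lists that rose held it in 36 of 68 cases (52.9%). With those genes set aside, windows of genes that rose 2-fold or more held it in 3.73%. TTCNNNGAA was in 6.39% of tested windows, 7.74% of those of genes that rose 2-fold or more and 9.30% of those that fell 2-fold or more. These shares are descriptions without a test, and windows of a gene with several starts overlap.

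**Figure D3:**
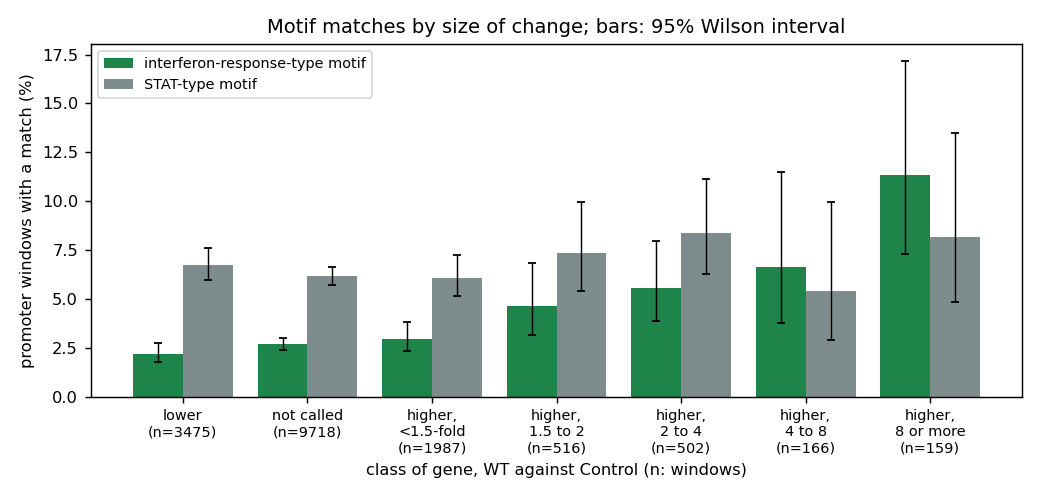
Percent of 300-base promoter windows with a match to the interferon-response motif (green) or TTCNNNGAA (grey, STAT type) by class of change, with 95% Wilson intervals. The green bars go from 2.19% for genes that fell to 11.3% for rises of 8-fold or more, and the grey bars lie between 5.42% and 8.37%.

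No interferon gene was measured well enough to test. Of the 9 listed, IFNE, an interferon of epithelia, had the most counts, 4 and 3 in Control, 6 and 12 in WT, with the IDRmut libraries at 6 and 11. IFNB1 had 0 counts in both Control libraries, 5 in each WT library, and 1 and 2 in the IDRmut libraries. These are too few to read. The receptors of type I interferon were measured, and IFNAR1 (log2 -0.01 ± 0.05) and IFNAR2 (-0.28 ± 0.33), named after their values were seen, were not called. Of 19 measured interferon and cytokine receptor genes, 7 rose and 2 fell (median log2 fold change 0.36, beside 0.0017 over all genes). IL4R, the shared chain of the interleukin 4 and 13 receptors, stood at 0.101 and 0.161 CPM in Control and 4.31 and 4.91 CPM in WT (5.10 ± 0.33), and IL7R rose from 12.4 and 11.6 to 41.6 and 41.2 CPM (1.78 ± 0.07). The libraries of the groups were well apart for both, though lack of overlap was a condition for naming most genes of a list. STAT6, which carries the interleukin 4 signal, had 1 to 6 counts in each of the 6 libraries.

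Among the signal carriers, STAT2 rose slightly (log2 0.36 ± 0.06), and IRF9, its DNA-binding partner, rose from 1.93 and 1.56 to 5.53 and 4.88 CPM (1.56 ± 0.18). The exons of IRF9 overlap another gene over 48.4% of their length, and strand was not stated in the counting. Of 6 measured interferon regulatory factors, IRF1 (0.44 ± 0.07), IRF5 and IRF9 rose and IRF2 fell (-0.36 ± 0.09). JAK2 fell slightly (-0.22 ± 0.08), while JAK1, TYK2, JAK3 and STAT3 were not called. The calls of IRF2 and JAK2 were lost without Control replicate 1 (-0.32 and -0.11, adjusted p = 0.074 and 0.48 by edgeR), and that of JAK2 also without either WT library (adjusted p = 0.11 and 0.17). In the test against IDRmut, STAT2 (0.07 ± 0.05, adjusted p = 0.37 by edgeR) and IRF9 (0.16 ± 0.14, adjusted p = 0.44) were not called.

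Antiviral effectors rose nearly as a body: 27 of 29 measured rose (93.1%, beside 17.4% of all genes) and 1 fell, and the median log2 fold change was 1.94. Members close to 0 in Control, such as RSAD2 and MX2 below, pass the filter through the ACK1 groups, which favors a call higher. IFIT1, which binds viral RNA lacking a host-type cap, measured 2.79 and 2.80 CPM in Control and 61.8 and 62.4 CPM in WT. The 2 libraries of each group nearly coincided, and the rise was 22.2-fold (log2 4.47 ± 0.09). Its relative IFIT3 rose by the same amount (4.48 ± 0.13). MX1, a GTPase that traps viral nucleocapsids, went from 0.710 and 0.699 to 37.6 and 38.6 CPM (5.75 ± 0.13). OAS2 (4.31 ± 0.15) and OAS3 (1.94 ± 0.07) make the 2-5A signal that activates RNase L. Per kilobase of exon OAS3 stood at 2.16 CPM in Control and OAS2 at 0.194 CPM. RSAD2, the enzyme that makes a chain-terminating nucleotide, had 2 and 1 counts in Control and 410 and 660 in WT, a ratio of 250.2 with a 95% exact interval of 85.4 to 1215 for counting error. MX2 had 1 and 0 counts in Control and 112 and 197 in WT, a ratio of 217 (38.6 to 8589). The helicase cofactor HELZ2 rose from a higher base, 12.8 and 13.8 to 73.2 and 75.6 CPM (2.49 ± 0.08).

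Other interferon-inducible genes followed, but not all of them. Of 19 measured membrane and matrix genes, 13 rose and 3 fell (median 2.03). IFI44L was at 0.304 and 0.269 CPM in Control and 24.1 and 21.9 CPM in WT (6.29 ± 0.18), IFI27 at 0.203 and 0.699 and 16.5 and 15.1 CPM (5.13 ± 0.22), and the guanylate-binding protein GBP5 at 0.507 and 0.376 and 10.3 and 10.3 CPM (4.52 ± 0.20). All 3 were close to absent in Control. The 3 that fell, named after their values were seen, were LY6E (-0.55 ± 0.06), IFITM1 (-0.54 ± 0.05) and IFITM2 (-0.45 ± 0.05). IFITM3 rose slightly (0.24 ± 0.05), a call lost without Control replicate 1 (0.16, adjusted p = 0.07 by edgeR). IFITM genes are near copies of one another, so counts may be split among them. IFI6, a mitochondrial protein, was the highest of 4 genes set side by side per kilobase of exon, 16.6 CPM in Control and 104 in WT, against 4.67 and 38.9 for ISG15, 0.606 and 13.5 for IFIT1 and 0.0280 and 2.25 for IFI44L.

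Sensors of foreign RNA and DNA numbered 13, of which 10 rose and none fell. IFIH1, the long double-stranded RNA sensor MDA5, rose from 9.69 and 8.77 to 26.5 and 27.8 CPM (1.56 ± 0.08), and DHX58, its regulator LGP2, from 1.67 and 1.94 to 8.47 and 6.41 CPM (2.01 ± 0.18). Of 14 genes of ISG15 conjugation and of interferon-linked PARP enzymes, 13 rose and none fell. ISG15, a ubiquitin-like modifier, went from 4.16 and 4.63 to 36.7 and 36.4 CPM (3.06 ± 0.09), and HERC6 (1.52 ± 0.10) and the ADP-ribosylating PARP9 (1.44 ± 0.07) rose less. Beside IDRmut, 21 of the 29 antiviral effectors were higher in WT, and none was lower. The shares over all genes were 14.2% higher and 12.3% lower.

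**Figure D4:**
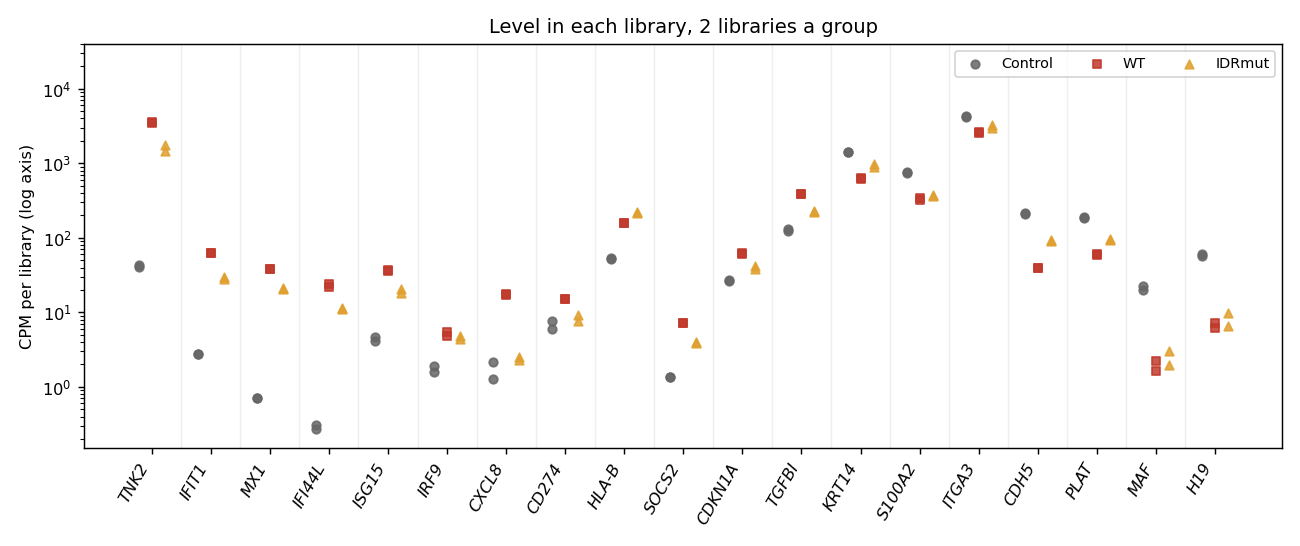
CPM in each library (log axis) of 19 genes named in the text, with Control as grey circles, WT as red squares and IDRmut as orange triangles, 2 libraries a group. The WT and Control points are apart for all 19 genes. Most of these could be named only if called and without overlap, so their separation follows from that choice. Over all genes tested, the groups did not overlap for 69.2%. For CXCL8 and CD274 the IDRmut points lie near those of Control.

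Antigen presentation rose more modestly. Of 20 measured genes of HLA class I and peptide loading, 15 rose and 1 fell (median 0.44). HLA-B went from 52.04 and 53.2 to 160.0 and 159.7 CPM (1.603 ± 0.04), and the peptide transporter TAP1 from 42.9 and 46.6 to 76.7 and 75.4 CPM (0.76 ± 0.06). HLA-F (1.25 ± 0.12) shares 28.5% of its exon length with another gene, and HLA genes are similar enough for reads to be split. In contrast to the antiviral genes, HLA-B was lower in WT than in IDRmut (-0.45 ± 0.04, adjusted p = 1.6e-07 by edgeR), where it reached 222 and 214 CPM. Among checkpoint ligands, CD274 (PD-L1) rose from 7.71 and 5.92 to 15.1 and 15.3 CPM (1.15 ± 0.12), and PDCD1LG2 (PD-L2) rose by a like amount (1.09 ± 0.23). IDO1, the tryptophan-degrading enzyme, had 1 count in each Control library and 43 and 88 in the WT libraries, a ratio of 46.0 (12.5 to 383). ENTPD1, an ectonucleotidase, fell (-0.43 ± 0.09).

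Of 17 measured chemokines and cytokines, 12 rose and 2 fell (median 0.87). CXCL8, the neutrophil attractant, was at 2.18 and 1.29 CPM in Control, 17.6 and 17.1 in WT, with the IDRmut libraries at 2.55 and 2.32 CPM. The WT libraries stood apart from both other groups, with a log2 fold change of 3.30 ± 0.15 over Control and 2.83 ± 0.14 over IDRmut (adjusted p = 1.7e-10 by edgeR). CXCL10, which draws T cells, had no count in Control and 2.99 and 2.95 CPM in WT, at least 37.9-fold higher on the 3-count floor. CXCL14 rose from 0.406 and 0.645 to 12.05 and 12.8 CPM (4.57 ± 0.19), though IDRmut was higher still at 69.4 and 74.5 CPM (WT minus IDRmut -2.53 ± 0.07). TNFSF10, the death ligand TRAIL, showed the same order (0.87 ± 0.14 over Control, -1.07 ± 0.11 against IDRmut).

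NF-kappaB genes moved in part: 7 of 19 rose (4 without Control replicate 1) and 2 fell. BIRC3, an inhibitor of apoptosis, rose from 26.2 and 22.6 to 57.5 and 55.9 CPM (1.21 ± 0.07) and TRAF1 similarly (1.22 ± 0.14), but BCL3, a nuclear IkappaB protein, went down from 51.8 and 51.7 to 25.7 and 25.9 CPM (-1.005 ± 0.06). Of 12 inflammasome genes 7 rose (4 without Control replicate 1 or WT replicate 2) and none fell. The sensor NLRP1 led them, with 5 and 0 counts in Control and 10.3 and 11.2 CPM in WT (6.32 ± 0.32). With so few Control counts, the value after ± understates the error for NLRP1. Of 18 complement and coagulation genes 13 rose and 2 fell (median 0.70). C3, the central complement protein, moved from 0.101 and 0.269 to 2.89 and 2.63 CPM (3.86 ± 0.36). PLAT, tissue plasminogen activator and far more abundant, fell from 183 and 189 to 58.9 and 59.9 CPM (-1.64 ± 0.04).

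STAT5 and its targets changed less and in both directions. STAT5A rose from 5.68 and 4.63 to 7.20 and 6.61 CPM (0.41 ± 0.13, adjusted p = 0.022 by edgeR), and STAT5B, the more abundant form per kilobase as well, was not called (0.08 ± 0.06, adjusted p = 0.32). The call of STAT5A was lost without Control replicate 2 (0.27, adjusted p = 0.23 by edgeR), without WT replicate 1 (0.36, adjusted p = 0.099) and by DESeq2 (adjusted p = 0.17). Of 23 measured STAT5 targets, 7 rose (30.4%) and 5 fell (21.7%), with a median of 0.02. In either direction 52.2% were called, beside 35.0% of all genes. SOCS2, a suppressor of growth hormone signalling, rose from 1.37 and 1.34 to 7.15 and 7.25 CPM, a 5.29-fold change (2.40 ± 0.16), with IDRmut between the groups at 3.93 and 4.05 CPM. CDKN1A, the CDK inhibitor p21, rose from 26.6 and 26.9 to 60.3 and 62.2 CPM (1.196 ± 0.06), and EGR1 from 25.3 and 27.8 to 45.7 and 46.4 CPM (0.80 ± 0.06). SOCS1 (1.29 ± 0.38), ID1 (0.31 ± 0.05), IRF1 and CDKN1B (0.18 ± 0.06) also rose. The call of SOCS1 was lost without Control replicate 1 (0.88, adjusted p = 0.19 by edgeR) or WT replicate 2 (adjusted p = 0.1), and that of CDKN1B without any 1 of the 4 libraries (adjusted p = 0.1 to 0.2).

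CISH, whose window is printed above, was low in all libraries (0.304 and 0.430 CPM in Control, 0.637 and 0.556 in WT) and was not called (0.68 ± 0.42, adjusted p = 0.24 by edgeR). FOS went from 13.9 and 13.7 down to 6.66 and 6.38 CPM (-1.09 ± 0.10), and BCL6 (-0.34 ± 0.06), CCNE1 (-0.29 ± 0.08), MCL1 (-0.23 ± 0.03) and the ERK inhibitor SPRED2 (-0.20 ± 0.05) also fell. Without WT replicate 2 the calls of CCNE1 (adjusted p = 0.091 by edgeR) and SPRED2 (adjusted p = 0.14) were lost, as was that of CCNE1 without Control replicate 1 (adjusted p = 0.057) and that of SPRED2 without Control replicate 2 (adjusted p = 0.092). Several proliferation and survival targets were not called: CCND1 (0.01 ± 0.03), MYC (-0.09 ± 0.05), PIM1 (0.04 ± 0.10), PIM2 (0.20 ± 0.09), PIM3 (-0.15 ± 0.07), BCL2 (-0.15 ± 0.10) and BCL2L1 (0.01 ± 0.04), the last overlapping another gene over 42.97% of its exons. CCND3 (0.02), SOCS3 (0.11) and AKT1 (-0.06) were not called either. MYC was lower in WT than in IDRmut (-0.60 ± 0.05, adjusted p = 4.1e-08 by edgeR), where it stood at 156 and 145 CPM. Of 12 SOCS-type feedback inhibitors, 4 rose, among them the ISG15 protease USP18 (0.74 ± 0.12), and 1 fell, SOCS6 (-0.24 ± 0.06; without Control replicate 1 -0.19, adjusted p = 0.078 by edgeR).

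Of 26 measured partners of ACK1, TNK2 included, 9 rose and 5 fell (53.8% called, beside 35.0% of all genes; median 0.08). The kinase SRC rose from 2.49 and 2.10 to 5.34 and 5.32 CPM (1.21 ± 0.16) and the autophagy receptor SQSTM1 from 155 and 152 to 263 and 265 CPM (0.78 ± 0.05), while the ubiquitin ligase NEDD4L fell (-0.41 ± 0.05). Clathrin and endosome genes were called at 22% (6 rose and 3 fell of 41), under the 35.0% of all genes, although 14 rose with upper-quartile scaling and 15 with the GC and length correction. DAB1, a reelin adaptor, fell (-1.26 ± 0.10), and DNM1, a dynamin, rose (1.19 ± 0.12).

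Growth factor receptors split, with 8 of 27 higher (5 without Control replicate 1 or WT replicate 2, and 5 by DESeq2) and 10 lower. NTRK2, the BDNF receptor, dropped from 51.1 and 50.1 to 23.9 and 23.98 CPM (-1.08 ± 0.06), against 61.7 and 67.6 CPM in IDRmut (WT minus IDRmut -1.43 ± 0.06). PDGFRA fell from 56.5 and 59.1 to 28.1 and 30.97 CPM (-0.96 ± 0.06), while FGFR1 rose (0.86 ± 0.07). Of 27 ligands and binding proteins 14 rose and 9 fell, the falls including the abundant IGFBP5 (1473 and 1464 to 802 and 806 CPM, -0.87 ± 0.03) and IGFBP2 (-0.82 ± 0.06), which bind insulin-like growth factors.

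Of 23 MAPK output and feedback genes, commonly read as reporters of ERK activity, 12 fell and 4 rose (median -0.20). DUSP4, a nuclear ERK phosphatase, stood at 477 and 477 CPM in Control and 255 and 249.6 CPM in WT (-0.92 ± 0.04). ETV4 (-1.08 ± 0.06), ETV1 (-0.92 ± 0.05) and DUSP6 (-0.88 ± 0.06, with 40.5% of its exons shared with another gene) fell to a similar degree. Immediate early genes instead rose in 13 of 23 cases (8 without Control replicate 1, Control replicate 2 or WT replicate 2, and 8 by DESeq2) and fell in 3. ATF3, a stress-induced repressor, went from 1.83 and 1.72 to 11.2 and 10.6 CPM (2.61 ± 0.14), and FOSB (1.51 ± 0.27) and KLF4 (1.08 ± 0.17) rose while FOS fell.

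Of 29 TGF-beta and BMP genes 22 rose and 6 fell, or 3 without Control replicate 1 or WT replicate 2 and by DESeq2 (median 0.45). GDF15, a stress cytokine, moved from 4.41 and 5.70 to 21.2 and 20.5 CPM (2.04 ± 0.11), INHBA, the activin subunit, from 3.04 and 3.17 to 8.23 and 7.93 CPM (1.37 ± 0.13), and the decoy receptor BAMBI from 7.36 and 6.29 to 15.1 and 15.5 CPM (1.17 ± 0.10). The YAP-TEAD targets rose in 12 of 24 cases and fell in 4, with ANKRD1 going from 179 and 187 to 346 and 352 CPM (0.93 ± 0.05) against 182 and 205 CPM in IDRmut (WT minus IDRmut 0.85 ± 0.05), and CCN1 less (0.61 ± 0.04). Wnt genes went both ways, 12 higher (7 without WT replicate 2) and 9 lower of 31: WNT5B rose (3.17 ± 0.15), as did the stem cell receptor LGR5 (1.12 ± 0.14), and WNT7B fell (-1.17 ± 0.07). Notch genes were similarly split, 5 higher and 6 lower of 18.

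Basal squamous markers mostly fell. Of 10 measured squamous carcinoma markers, 7 fell and 2 rose (median -0.62), and their summed level was 2941 and 2930 CPM in Control, 1544 and 1503 in WT, with the IDRmut libraries at 2201 and 2049 CPM. KRT14 made up much of that sum and fell from 1414 and 1434 to 636 and 608 CPM (-1.196 ± 0.04). S100A2, a calcium-binding protein of basal cells, fell from 773 and 746 to 338 and 323 CPM (-1.202 ± 0.04), and the chloride channel regulator CLCA2 from 18.4 and 16.5 to 5.63 and 6.58 CPM (-1.49 ± 0.10). The 2 that rose were the keratin KRT6A (0.66 ± 0.06) and TP63 (0.19 ± 0.07, adjusted p = 0.042 by edgeR). The call of TP63 was lost without any 1 of the 4 libraries (adjusted p = 0.062 to 0.26 by edgeR) and by DESeq2 (adjusted p = 0.2). All 10 markers were called lower in WT than in IDRmut. In bulk RNA, fewer cells expressing a gene and less RNA per cell cannot be told apart.

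Keratins as a family divided, 8 higher and 7 lower of 17. KRT18 and KRT8 pair in simple epithelium, and they rose (2.71 ± 0.16 and 1.22 ± 0.08), as did KRT13 of non-cornified squamous layers (16.8 and 17.5 to 50.7 and 48.1 CPM, 1.52 ± 0.08), while KRT17 fell from 26.8 and 29.7 to 11.7 and 11.8 CPM (-1.26 ± 0.09). KRT8 was higher again in IDRmut, at 76.00 and 68.9 CPM (WT minus IDRmut -1.37 ± 0.06). Keratins have many processed pseudogenes, and KRT18 and KRT13 each overlap other genes over 16.3% of their exons. Of 23 squamous regulators and cornified envelope genes 7 rose and 8 fell, with 3 rises left without Control replicate 1 and 4 without Control replicate 2, without WT replicate 2 and by DESeq2. PADI3, a citrullinating enzyme of hair and skin, dropped from 14.5 and 14.3 to 2.60 and 3.25 CPM (-2.27 ± 0.12), and the giant cadherin FAT2 from 7.91 and 7.91 to 3.67 and 3.25 CPM (-1.21 ± 0.13).

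Junction and adhesion genes went in both directions. Of 16 tight junction and polarity genes 7 rose (3 without Control replicate 1, 4 without Control replicate 2 and 4 by DESeq2) and 1 fell, with OCLN going from 1.27 and 1.08 to 3.53 and 4.33 CPM (1.76 ± 0.21). Of 8 measured cadherins 4 rose and 3 fell: CDH13, a cadherin held by a lipid anchor, rose (1.09 ± 0.05) and CDH5 fell as given above. The 32 measured protocadherins fell in 15 cases, or 9 without Control replicate 2 and by DESeq2, and rose in 2 (median -0.33). Within them all 11 calls among 15 genes of the PCDHB cluster were falls, such as PCDHB8 (-0.93 ± 0.14), whereas PCDH1, a gene outside the clusters, rose from 2.08 and 1.56 to 26.3 and 28.6 CPM (3.91 ± 0.13). PCDHB genes are close paralogs, and their counts may be split. Of 17 integrins 4 rose and 8 fell. ITGA3, the laminin receptor and among the most abundant RNAs, fell from 4221 and 4327 to 2582 and 2602 CPM (-0.72 ± 0.04), and the fibronectin receptor ITGA5 rose from 18.6 and 16.9 to 37.2 and 39.3 CPM (1.11 ± 0.07).

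Matrix genes moved in both directions, with 16 of 35 collagen genes higher and 12 lower, and 16 of 37 matricellular and basement membrane genes higher and 12 lower. FKBP10, a collagen chaperone, rose from 0.203 and 0.323 to 8.77 and 9.07 CPM (5.07 ± 0.23), and COL13A1 rose (3.43 ± 0.28). TNC, tenascin C, fell from 1949 and 1967 to 1179 and 1164 CPM (-0.74 ± 0.04), and FBLN2 from 26.4 and 28.7 to 6.02 and 6.64 CPM (-2.10 ± 0.09). SPARCL1 went the other way in the 2 forms of ACK1, from 4.41 and 4.95 CPM in Control to 0.392 and 0.409 CPM in WT (-3.52 ± 0.22) and 15.2 and 15.1 CPM in IDRmut (WT minus IDRmut -5.22 ± 0.17). Of 27 mesenchymal genes 12 rose and 7 fell. SNAI2, a repressor of epithelial genes, rose from 1.17 and 0.914 to 3.48 and 3.54 CPM (1.75 ± 0.22). Heparan sulfate genes fell in 11 of 28 cases (7 without Control replicate 1), GPC1 (-0.91 ± 0.05) among them, and rose in 4, GPC6 (2.18 ± 0.16) and SULF1 among them. Of 36 proteases and inhibitors 15 rose, the metalloprotease ADAM12 (1.59 ± 0.06) among them, and 10 fell.

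DNA replication genes fell widely but by little: 32 of 49 fell and 3 rose, with a median of -0.22 and no member called beyond 1.5-fold. The share lower was 65.3%, at a median Control level of 94.9 CPM. Among all genes, 21.4% were lower at 10 to 100 Control CPM and 40.9% at 100 CPM and above. MCM6, a subunit of the replicative helicase, went from 188 and 197 to 148 and 151 CPM (-0.36 ± 0.04), and POLA1, of the primase complex, from 142 and 145 to 107 and 103 CPM (-0.46 ± 0.04). For both, the WT libraries lay under the Control libraries without overlap, as for 34.7% of all genes. The 10 tested protein-coding genes whose symbols are MCM followed directly by a digit, a grouping by name and not by function, were all called lower. E2F1 also fell (-0.44 ± 0.05), as did 26 of 49 DNA repair genes (53.1%, median Control level 48.2 CPM), UNG (-0.49 ± 0.04) among them, against 2 that rose. The 26 became 17 without Control replicate 2 and by DESeq2, and 16 without WT replicate 2. Mitotic genes did not share this: 14 of 48 rose and 8 fell (median 0.00). These counts were 9 and 5 without Control replicate 1 or WT replicate 1, the falls were also 5 without WT replicate 2, and the counts were 17 and 13 with a correction for GC content and length. Examples were CDC20, up from 140.5 and 146 to 213 and 214 CPM (0.58 ± 0.04), and MYBL2, down (-0.32 ± 0.04). Against IDRmut, 40 of the 48 mitotic genes were higher in WT and 1 was lower.

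Replication-dependent histone genes, whose RNAs mostly lack a poly(A) tail and are poorly captured in such libraries, rose in 9 of 13 measured cases and fell in none, H2AC6 going from 4.01 and 5.11 to 15.6 and 14.2 CPM (1.70 ± 0.12). Of 26 p53 targets 12 rose and 4 fell, CDKN1A and GDF15 being among the former. Of 17 BCL2 family genes 6 rose, including BAX (0.35 ± 0.06) and the BH3-only PMAIP1 (0.50 ± 0.07), which promote cell death, and 1 fell, the survival factor MCL1.

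Metabolic groups changed by small amounts. Glycolysis and hypoxia genes numbered 40, of which 20 fell and 4 rose (median -0.11), NDRG1 going from 162 and 172 to 95.7 and 92.8 CPM (-0.83 ± 0.05). Of 37 sterol and fatty acid genes 19 rose (12 without Control replicate 1) and 6 fell, the regulator SREBF1 among the latter (373 and 379 to 242 and 253 CPM, -0.60 ± 0.05). Amino acid transporters and one-carbon genes numbered 32, of which 16 rose and 4 fell, with SLC6A9, a glycine transporter, at 1.24 ± 0.12. Of 47 nuclear-encoded respiratory chain genes 16 fell and 4 rose. The falls numbered 7 without Control replicate 1, 9 without Control replicate 2, 10 by DESeq2 and 25 with the GC and length correction. The median Control level was 82.0 CPM for this list and 82.6 CPM for the glycolysis and hypoxia list. Among all genes, 21.4% were lower at 10 to 100 Control CPM and 40.9% at 100 CPM and above. NRF2-type targets divided, 11 higher and 9 lower of 34, the higher being 7 without WT replicate 2 and by DESeq2. HMOX1, heme oxygenase, rose from 12.5 and 13.2 to 38.8 and 37.2 CPM (1.56 ± 0.07) and the ferritin chain FTL from 276 and 286 to 521 and 506 CPM (0.87 ± 0.04), and ALDH3A1 fell (-1.22 ± 0.07).

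Stress genes were mixed. Of 31 genes of the integrated stress and unfolded protein responses 7 rose and 11 fell (7 without Control replicate 2 or WT replicate 2, and 6 without WT replicate 1), the rises including CHAC1 (1.30 ± 0.14) and TRIB3 (1.02 ± 0.11). CRYAB, a small heat shock protein, rose from 5.48 and 5.38 to 58.5 and 55.4 CPM (3.39 ± 0.08), the most of 29 chaperones, of which 9 rose and 4 fell. Of 40 ribosome biogenesis genes 3 rose and 5 fell (or 5 and 4 with upper-quartile scaling). Chromatin genes of DNA methylation and Polycomb fell in 9 of 32 cases and rose in 1, TET1 going from 19.8 and 20.3 to 13.2 and 12.7 CPM (-0.64 ± 0.08).

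Lineage transcription factors rose in 20 of 36 cases and fell in 4 (median 0.39), mostly from low levels: GATA2 rose from 5.12 and 4.41 to 9.55 and 11.1 CPM (1.13 ± 0.13), ELF3 from 0.964 and 1.40 to 3.09 and 3.36 CPM (1.46 ± 0.22), and MAF fell. Of 23 potassium and calcium channels 10 rose (4 without Control replicate 1, 5 without WT replicate 2 and 3 by DESeq2) and 4 fell. Markers of other cell types moved singly. Of 9 neuroendocrine markers 3 were measured: the neural adhesion gene NCAM1 rose from 0.304 and 0.161 to 4.07 and 4.30 CPM (4.13 ± 0.31), and CHGB fell. Of 7 measured endothelial markers 2 rose and 1 fell. The endothelial receptor TEK rose from 1.07 and 1.08 to 4.70 and 5.50 CPM (2.27 ± 0.20), opposite to CDH5. Long noncoding genes were called in 17% of 2217 cases and protein-coding genes in 40.6% of 12928, with a median Control level of 1.02 CPM against 29.2 CPM.

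**Figure D5:**
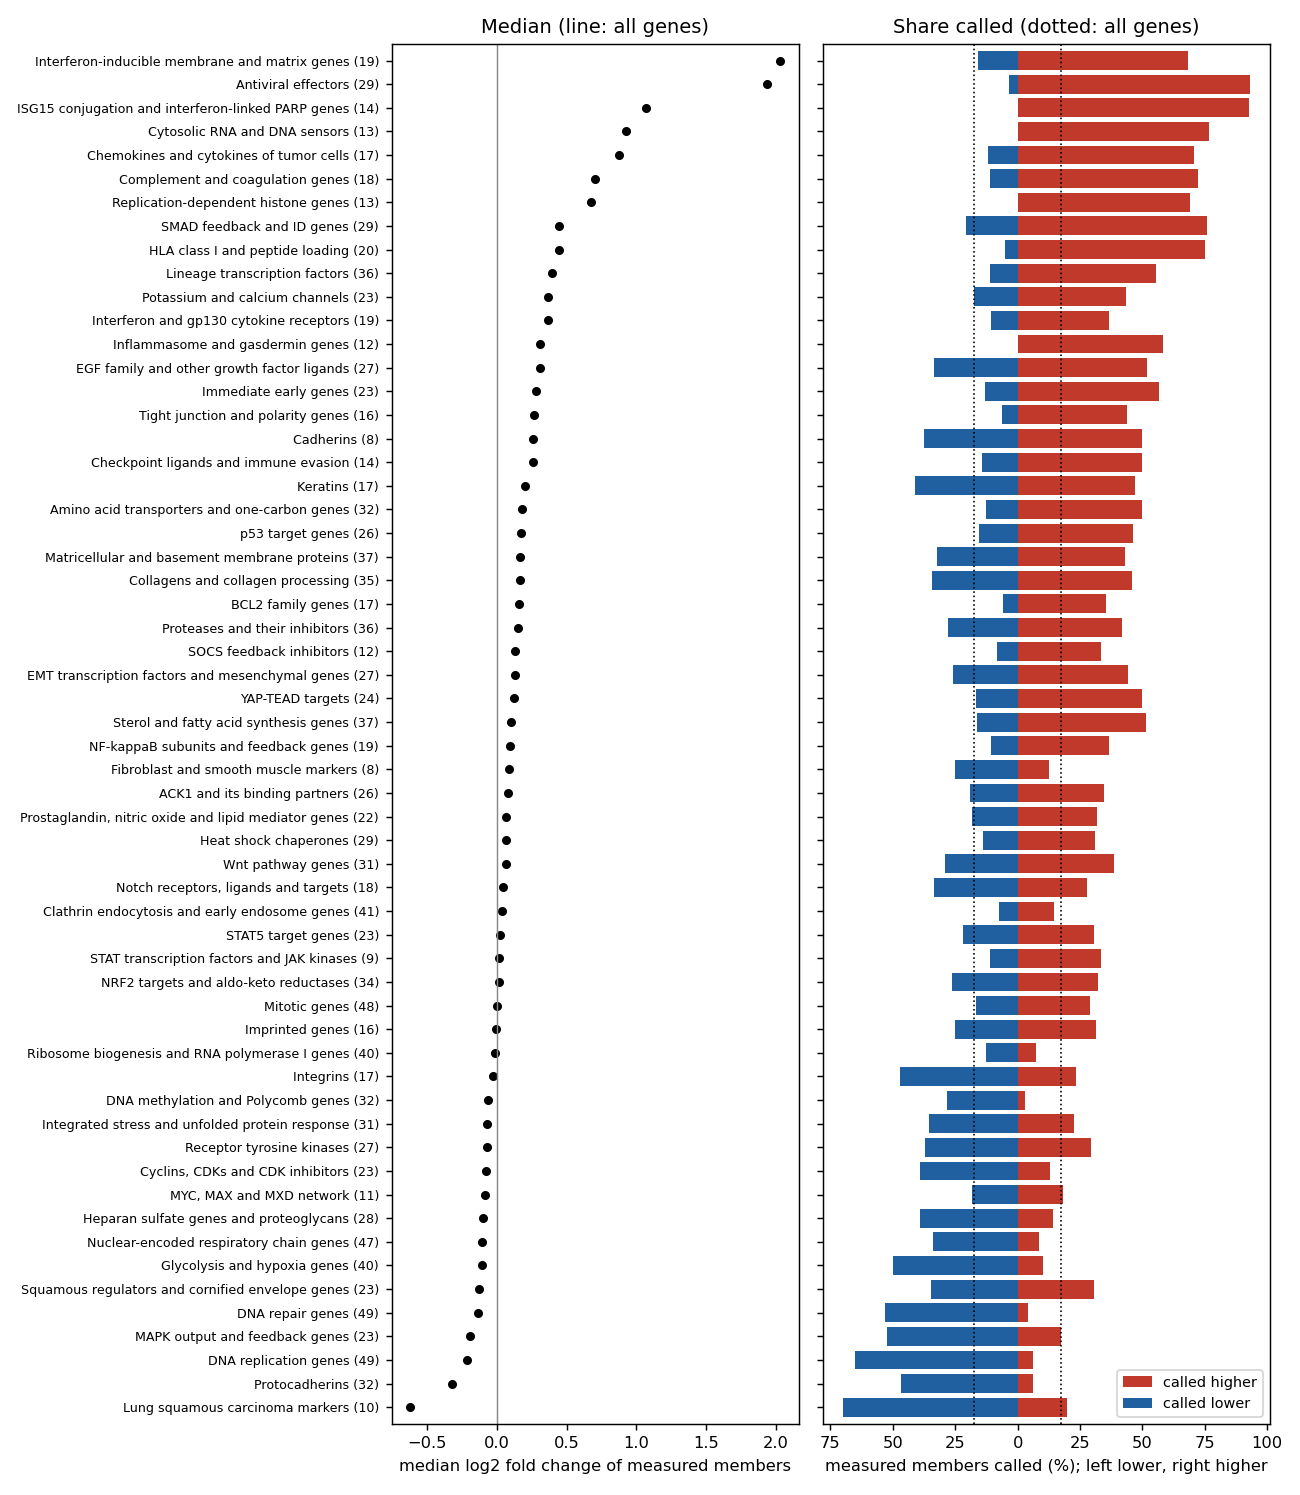
Each row is a gene list with at least 8 measured members (number in brackets): left, the median log2 fold change, and right, the percent of members called higher (red) or lower (blue), with dotted lines at the 17.4% and 17.6% of all genes. Interferon groups head the plot with medians from 0.93 to 2.03, and DNA replication, protocadherin and squamous marker lists close it.

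WT and IDRmut were both compared with the same Control libraries, so the 2 comparisons are not independent, and WT was therefore also tested directly against IDRmut. Of the 2889 genes called higher in WT than in Control, 1183 (40.9%) were also higher in WT than in IDRmut and 175 were lower. Of the 2918 called lower, 1024 (35.1%) were lower in WT than in IDRmut and 229 higher. The WT libraries enter both comparisons, so these shares are descriptions. The background shares were, as above, 14.2% and 12.3%. Among genes that rose 2-fold or more 42.4% were higher in WT than in IDRmut, and among those that fell 2-fold or more 45.7% were lower. IFIT1 was higher in WT than in IDRmut (log2 difference 1.08 ± 0.06), and FKBP10 (-0.05 ± 0.10) and C3 (-0.02 ± 0.19) were not called between the ACK1 groups.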

How the data were processed

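RNA was measured in 6 libraries of H2170 cells, 2 for each of the groups Control, WT and IDRmut. The deposited values are whole-number read counts per gene that the authors made with HISAT2 2.2.1, SAMtools 1.14 and featureCounts 2.0.1 on GRCh38, per the submitters' processing notes. The sources used here give no strand setting, annotation release or batch. Of 61487 gene identifiers in the table, 61369 were named from a current gene table, 105 from GENCODE 29 only and 13 had no name. Ratios of counts carry 95% exact intervals, and fold bounds against a group without counts use a floor of 3 counts over that group; both cover counting error only.

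Counts were scaled by TMM and tested with edgeR 4.0.16 (limma 3.58.1, R 4.3.3) by its quasi-likelihood test in 1 model of all 3 groups, which leaves 3 residual degrees of freedom (prior 13.5; common biological coefficient of variation 0.0294). Filtering by expression (minimum count 10, total 15) left 16591 genes. A change beyond 1.5-fold was tested with glmTreat. CPM uses TMM-scaled totals. On simulated counts for WT against Control over 16591 genes, the test called 50 of 67 genes changed 1.5-fold, 56 of 67 changed 2-fold, 65 of 66 changed 4-fold, and 8 of 16391 unchanged genes. Changes were set only in genes above a minimum total count, and in far fewer genes than were called here. Counts were drawn with the spread that the fit itself had estimated. The simulation therefore gives no error rate for the real comparison and does not cover genes with fewer counts. The replicate numbers were not used to pair libraries.

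The comparison and the 65 gene lists were chosen with earlier results of these data known. The lists hold 1753 different gene names, of which 1407 were tested. The 280 genes eligible to be named were TNK2, the STAT5 genes and targets, up to 4 called members a list with at least 2 CPM and groups that do not overlap, and up to 8 rises and 8 falls per class of Control CPM; others are named as examples or as chosen after their values were seen. Of the lists, 5 had a member without a Control count, and no list median differed with such members at their bound. Alternatives numbered 13 and included DESeq2 1.42.0, other scalings and leaving out each Control and WT library. Figures were drawn with matplotlib 3.10.9. Some genes are not reported here.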

Additional observations from a re-analysis of the deposited data

Results flagged for a closer look

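For 8 of the named genes the change from Control was called in opposite directions in WT and in IDRmut, with the test of WT against IDRmut itself called as well (edgeR's quasi-likelihood test). Over all genes 209 did so, 101 higher in WT than in IDRmut and 108 lower. Of the 8, SPARCL1 differed most, at -5.22 ± 0.17 for WT minus IDRmut on the log2 scale. FAT2 fell from Control in WT and rose in IDRmut (WT minus IDRmut -2.26 ± 0.11; IDRmut at 17.04 and 15.6 CPM). NTRK2 differed by -1.43 ± 0.06 and NDRG1 by -0.98 ± 0.04 (IDRmut at 191 and 180.4 CPM). CHGB, a granin of secretory granules, stood at 19.02 and 17.8 CPM in Control and 15.3 and 14.4 in WT, with the IDRmut libraries at 21.2 and 22.7 CPM (WT minus IDRmut -0.57 ± 0.08). NOP16, a ribosome assembly factor, stood at 55.5 and 53.03 CPM in Control, 48.3 and 48.2 in WT, with the IDRmut libraries at 61.6 and 62.4 CPM (-0.36 ± 0.05). PTGER4, a prostaglandin E2 receptor, was higher in WT (4.51 and 4.63 CPM in Control, 7.59 and 7.17 in WT, with the IDRmut libraries at 3.44 and 3.32 CPM; 1.12 ± 0.13). ID1 was higher in WT as well (214 and 206, 259.7 and 263 and 188 and 168 CPM in the same order; 0.56 ± 0.05). The groups share the Control libraries, and the amount of TNK2 RNA and the mutation cannot be told apart.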

How the results depend on the processing

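Of the 5807 calls, 99.9% stayed called in the same direction with DESeq2 size factors, 90.6% with upper-quartile scaling, 91.5% without the filter, 99.3% with only the Control and WT libraries, 91.5% with libraries thinned to the smallest total and 99.5% with a GC and length correction, and none was called in the opposite direction under any alternative. The share of calls that were higher went from 49.8% to 58.6% with upper-quartile scaling. DESeq2's Wald test called 3649 genes, 1799 higher and 1850 lower, with 462 beyond 1.5-fold. Leaving out 1 Control or WT library at a time gave 3974 to 4467 calls, 2017 to 2353 higher and 1944 to 2114 lower, 686 to 819 beyond 1.5-fold, and a log2 fold change of TNK2 from 6.37 to 6.43; where 1 library is left in a group, it is assumed to vary like the others. Deviations of the replicate 1 libraries from their group means correlated between groups at -0.022, -0.021 and -0.027, so the numbers do not pair the libraries; a replicate block gave 5440 calls, and the block with the GC and length correction 6648. Uncalled genes near 0 changed sign: IFNAR1 was 0.0246 with upper-quartile scaling, 0.0009 without the filter, 0.0125 with the GC and length correction (0.0069 with the block too) and -0.0361 to 0.0109 on leaving out 1 library (0.0101 without WT replicate 1, 0.0109 without Control replicate 2). Leaving out 1 library gave -0.0032 (without Control replicate 2) to 0.0268 for CCND1, -0.0046 (likewise) to 0.0385 for CCND3 and -0.0444 (without Control replicate 1) to 0.0551 for BCL2L1, which was -0.004 without WT replicate 2, -0.0094 with the GC and length correction and -0.0121 with the block too. Against IDRmut, FKBP10 was 0.0355 thinned, and C3 0.1121 thinned and -0.0788 to 0.0499 on leaving out 1 WT or Control library. Higher and lower changed places for 4 lists: stress response without WT replicate 1 (7 and 6), NRF2 targets by DESeq2 (7 and 9), without Control replicate 1 (8 and 9) and without WT replicate 2 (7 and 8), channels by DESeq2 (3 and 4), and ribosome biogenesis with upper-quartile scaling (5 and 4). The causes were not tested. With 2 libraries a group, changes of 1.5-fold in genes under 1 CPM, whose median standard error was 0.40, would mostly go uncalled. In that class 555 of 597 called rises and 37 of 38 called falls were of 2-fold or more.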

Other observations

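Summarised by position, a view chosen after the data were seen, the calls were uneven along the genome. Over the 9573 genes averaging 10 CPM or more, 16.9% were higher in WT than in Control and 25.5% lower. Of the 450 such genes on chromosome 7, 52 were higher and 193 lower (42.9%, median log2 fold change -0.12), and between 120 and 160 Mb 8 were higher and 76 lower of 116 (65.5%, median -0.22). On chromosome 20, 28 were higher and 111 lower of 254 (43.7%, median -0.12). The long arm of chromosome 1 between 200 and 240 Mb went the other way, with 71 higher and 22 lower of 151 (47.0% higher, median 0.15). Both non-overlapping library pairs showed these medians, -0.24 and -0.22 for the chromosome 7 stretch and 0.14 and 0.16 for that of chromosome 1. Against the same Control libraries IDRmut had 5 higher and 66 lower (median -0.19) in the former and 64 higher and 17 lower (median 0.13) in the latter. Positions are those of the gene annotation on GRCh38, and no test was made.

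Of 151 families grouped by the start of their symbols, 4 are given here, picked after their values were seen, beside 17.4% of all genes called higher and 17.6% lower. Of 12 tested SRSF genes, which encode splicing factors, 9 were lower in WT and none was higher. Their median Control level was 233 CPM, and among all genes at 100 CPM and above 40.9% were lower. Of 15 PDE genes of cyclic nucleotide breakdown 9 were lower and 2 higher. Of 10 PSMB genes of the proteasome core 6 were higher and none was lower, and of 13 ADAMTS matrix proteases 8 were higher and 2 lower. The pseudogene NSFP1 differed between libraries of 1 group, with 3.45 and 0.592 CPM in Control and 0.196 and 3.41 CPM in IDRmut.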
